A study of Rattus norvegicus with 7 samples.

Results

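The miRNAs described here are rno-miR-15b, rno-miR-16, rno-miR-195 and rno-miR-497 in rat liver, 4 of the 677 rat miRNAs with probes on the array and 4 of the 175 that were detected widely enough to be tested. They were chosen by name, as the spots whose miRNA name in the scanner files equals one of these 4. The rule itself uses no measured value. Adult male Sprague-Dawley rats ate a control diet or a diet with 50 mg/kg of potassium perfluorooctanesulfonate (PFOS, a persistent fluorinated surfactant) for 28 days, with food freely available. Each array, an Agilent 1-colour design for rat miRNAs, was hybridised with Cy3-labelled total RNA from the liver of 1 rat. The analysis used 4 PFOS arrays and 3 control arrays, since the submitters had set aside 1 control array at quality control. Names are written without the species prefix from here on.

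A mature miRNA guides the silencing complex to messenger RNAs that pair with its seed, the bases near its 5′ end. Members of the miR-15/16 family are known for lowering cyclins and other proteins that drive the cell through G1, and for lowering the survival factor Bcl2. In the liver miR-195 has been studied mostly as a brake on hepatocyte and tumour cell division. The family comes from paired genes: miR-15b and miR-16 are cut from one transcript, and miR-195 and miR-497 from another.

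The mature sequences are shown because the seed defines the family and the rest of the sequence sets how well a probe can tell members apart. They come from RefSeq (GRCr8), which held all 4 members, are written 5′ to 3′, and have bases 2 to 8, the seed, in capitals. The same-seed relative miR-322 and the near relative miR-503 are added for comparison.
miR-15b: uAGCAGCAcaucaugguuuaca
miR-16: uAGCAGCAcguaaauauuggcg
miR-195: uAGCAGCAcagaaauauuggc
miR-497: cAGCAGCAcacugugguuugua
miR-322: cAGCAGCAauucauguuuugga
miR-503: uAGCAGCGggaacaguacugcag

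The seed AGCAGCA was found in 5 of the 693 mature miRNA names of the RefSeq table, namely the 4 members and miR-322. The seed of miR-503 differs in its last base. Among the members, the closest sequences over the whole length lay across the 2 gene pairs and not within them. Aligned from the 5′ end without gaps, miR-16 and miR-195 were identical at 19 of 21 positions and differed by G10A and U11G, counted from 1 at the 5′ end of miR-16. miR-15b and miR-497 were identical at 16 of 22 positions. The pair partners shared fewer, with 14 of 22 positions for miR-15b and miR-16 and 12 of 21 for miR-195 and miR-497. Whether probes for miR-16 and miR-195 also bound the other member was not tested, so small differences between these 2 are uncertain.

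In the GRCr8 annotation Mir15b and Mir16 are neighbours on chromosome 2, and both lie within the span of Smc4, the gene of a condensin subunit. Mir497 and Mir195 are neighbours on chromosome 10. Mir322 and Mir503 are neighbours on the X chromosome. The array's own annotation is of an older assembly, so positions are not given. The hairpins of 3 members were in the RefSeq table and are shown with the arm that the arrays detected in capitals, since the opposite arm was not detected.
Mir16: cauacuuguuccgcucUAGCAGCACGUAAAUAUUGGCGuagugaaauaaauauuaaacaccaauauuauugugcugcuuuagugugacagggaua
Mir195: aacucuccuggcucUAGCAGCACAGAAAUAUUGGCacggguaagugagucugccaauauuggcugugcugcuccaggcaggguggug
Mir497: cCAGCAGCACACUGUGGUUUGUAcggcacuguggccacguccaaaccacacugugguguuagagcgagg

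All 4 members were detected on all 7 arrays. Each had 2 probes of 10 spots, which gave 560 spots over the arrays. Of these, 548 were kept after spots with an outlier flag were left out, and all 548 were well above background. The opposite arms miR-15b*, miR-16*, miR-195* and miR-497* also had probes and were detected on 0 of 7 arrays. Of the relatives, miR-322 was detected on all 7 arrays and miR-503 on none, while the array held no probes under the names miR-15a and miR-424. A miRNA counts as detected on an array where 1 or more of its probes had over 50% of its kept spots well above background. The summed unscaled signal was at most 10.7 for miR-15b*, 4.26 for miR-16*, 2.12 for miR-195* and 2.74 for miR-503, while miR-497* was below 0 on every array. The liver label was matched by the bright hepatocyte miRNA miR-122 and by detection of all 4 hepatocyte markers on the array. Of the 4 muscle markers miR-1, miR-133a and miR-133b were detected on no array, and miR-206 was detected widely enough to be tested. Of the 3 neuronal markers miR-124 and miR-9 were detected on no array, and miR-128 was tested. The signal of miR-206 alone was 11.96 to 57.4 in PFOS and 22.7 to 60.5 in control livers, with its low end near the floor of 12.1. That of miR-128 alone was 15.4 to 19.7 (19.65) and 13.1 to 19.8. The summed signal of the other marker lists overlapped between the groups, with 1068 to 1380 in PFOS and 1178 to 1303 in control livers for leukocytes, 1714 to 1854 and 1571 to 1936 for endothelium, and 746 to 1047 and 819 to 1023 for stellate cells.

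Before scaling, signal was higher on the PFOS arrays, 1.74-fold in the mean of the array medians over the 123 miRNAs detected on all arrays. Their labelling spike-in signal was 2.23-fold that of the control arrays. From 161 to 200 miRNAs were detected on PFOS arrays and from 131 to 174 on control arrays. Unscaled, the members were higher on PFOS arrays by 0.51 (miR-15b), 0.71 (miR-16), 0.66 (miR-195) and 0.66 (miR-497) on the log2 scale, beside a median of 0.71 over those 123 miRNAs. Values below are signals after scaling and cyclic loess, in arbitrary units. Probes differ in brightness for reasons other than amount, so the signal of one miRNA is not set against that of another. In whole liver, fewer cells of a type and less RNA per cell cannot be told apart.

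In the main processing no member differed between PFOS and control livers at an adjusted p under 0.05 in limma. All 4 log2 fold changes were below 0, from -0.19 for miR-15b to -0.04 for miR-497, and every 95% interval included 0 and stayed within a change of 0.5 in either direction. The comparison addresses whether dietary PFOS shifts liver miRNAs, in a series concerned with thyroid hormone balance.

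miR-15b, which pairs with cyclin and Bcl2 transcripts through the family seed, gave the lowest estimate of the 4. Its signal was 353, 306, 408 and 356 on PFOS replicates 1 to 4, and 378, 459 and 376 on control replicates 1 to 3. Of the PFOS livers, 3 lay below every control, and PFOS replicate 3 lay within the control range, so the groups overlapped. The means were 356 ± 41.6 (SD, n = 4) in PFOS and 404 ± 47.6 (SD, n = 3) in control livers. The log2 fold change was -0.19 (SE 0.13, 95% interval -0.49 to 0.12), a fold of 0.878, with an adjusted p of 0.499 in limma. That difference is close to the spread between arrays within a group, which was 0.17 on the log2 scale. The interval reaches from 0.712-fold to 1.08-fold.

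miR-16, the member named most often as a cell cycle brake and one that red blood cells also carry in quantity, had group means less far apart. The signal was 1635, 1429, 1645 and 1502 on the PFOS arrays and 1572, 1884 and 1403 on the control arrays, in replicate order. All 4 PFOS values lay between the lowest and the highest control. The means were 1552 ± 105 (SD, n = 4) and 1620 ± 244 (SD, n = 3). The log2 fold change was -0.05 (SE 0.12, 95% interval -0.34 to 0.23), with an adjusted p of 0.94 in limma.

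The order of the arrays by miR-16 was set beside their order by red cell miRNAs. The erythroid miRNA miR-451 had signals of 936, 375, 944 and 472 on PFOS replicates 1 to 4 and 729, 803 and 441 on control replicates 1 to 3. In an order compared after the values were seen, the 4 arrays with the highest miR-451 were also the 4 with the highest miR-16, and the same was true of miR-144, which is transcribed with miR-451. Of those 4 arrays, 3 were among the top 4 for miR-15b, 3 for miR-195 and 1 for miR-497. Top sets of 4 out of so few arrays must overlap, and the share of all tested miRNAs with as much overlap was not counted. Between the groups, the summed signal of both erythroid markers ran from 438 to 1079 in PFOS and from 518 to 930 in control livers, and miR-451 gave a log2 fold change of -0.02 (SE 0.41, adjusted p = 1 in limma). The part of red cell RNA in the miR-16 values was not tested.

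miR-195, known for holding cells in G1, was nearly level between the groups. Its signal was 536, 650, 675 and 614 on PFOS replicates 1 to 4 and 634, 665 and 625 on control replicates 1 to 3. PFOS replicate 1 was the lowest array and PFOS replicate 3 the highest, so the PFOS values spanned the controls. The means were 619 ± 60.6 (SD, n = 4) and 641 ± 20.9 (SD, n = 3). The log2 fold change was -0.06 (SE 0.10, 95% interval -0.29 to 0.18), with an adjusted p of 0.859 in limma.

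miR-497, cut from the same transcript as miR-195, had control values in a narrow band. The signal was 409, 524, 504 and 512 on the PFOS arrays and 488, 496 and 507 on the control arrays. PFOS replicate 1 was below every control and the other 3 PFOS livers were above the middle control. The means were 487 ± 52.7 (SD, n = 4) and 497.1 ± 9.21 (SD, n = 3). The log2 fold change was -0.04 (SE 0.10, 95% interval -0.28 to 0.21), with an adjusted p of 0.977 in limma. Without PFOS replicate 1 it was 0.05, and that of miR-195 was 0.01.

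**Figure D1:**
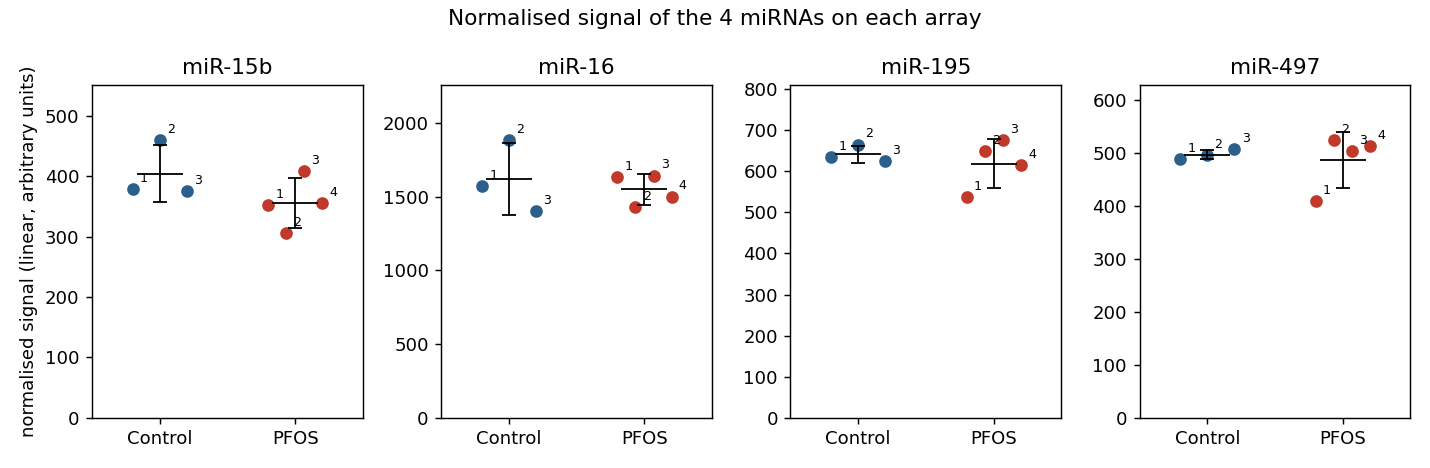
Normalised signal (linear scale from 0, arbitrary units) of miR-15b, miR-16, miR-195 and miR-497 on 3 control arrays (blue) and 4 PFOS arrays (red), with replicate numbers beside the points; the black line is the group mean and the bars are 1 SD. The groups overlap for all 4 miRNAs, and PFOS replicate 1 is the lowest array for miR-195 and miR-497.

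These counts stood against the following background. At an adjusted p under 0.05, 0 of the 4 members passed in limma, where 0 of all 175 tested miRNAs did (0%); the lowest adjusted value was 0.131. Without adjustment, at p under 0.05, 0 members passed, where 34 of 175 did (19.4%). The groups did not overlap for 0 members and for 34 of 175 tested miRNAs (19.4%). The median log2 fold change was -0.05 over the members and -0.02 over all tested miRNAs, of which 54.3% were below 0. The members were among the brighter of the tested miRNAs, from the 13th (miR-16) to the 48th (miR-15b) by mean signal. Their standard errors, 0.10 to 0.13, were below the median of 0.14 over all tested miRNAs.

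**Figure D2:**
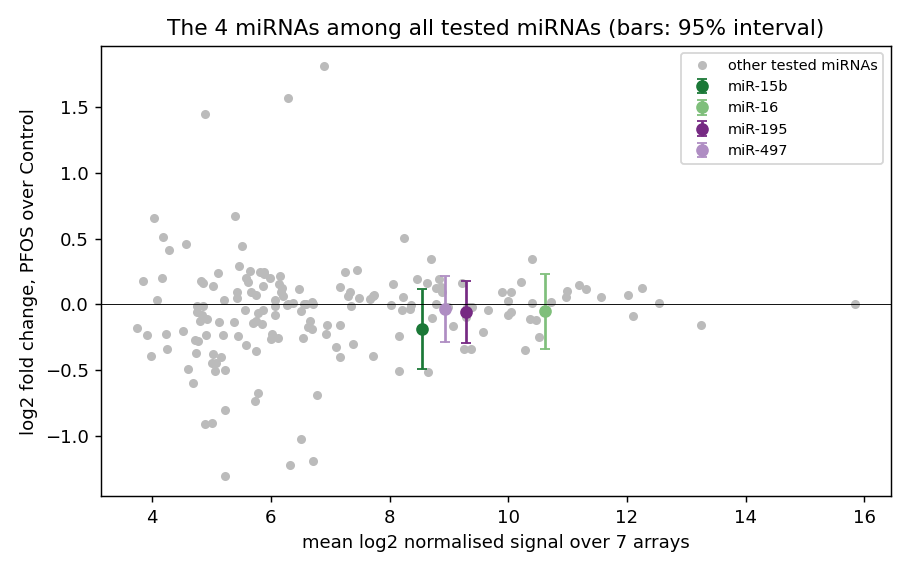
Log2 fold change of PFOS over control against mean log2 normalised signal for the 175 tested miRNAs (grey), with the 4 members in colour and their 95% intervals from limma. The members sit at -0.19 to -0.04, and each interval includes 0.

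The probes of a member gave like values. Fitted as single probes over 320 tested probes, the probes A_26_P00001190 and A_26_P00001191 of miR-15b gave log2 fold changes of -0.19 and -0.18. Those of miR-16 gave -0.02 (A_26_P00001193) and -0.06 (A_26_P00002568). The values were -0.03 (A_26_P00001443) and -0.07 (A_26_P00001444) for miR-195, and -0.02 (A_26_P00001749) and -0.06 (A_26_P00002597) for miR-497. All 8 estimates were below 0, but probes of 1 miRNA read the same RNA and are not replicates. Of the 8 probes, 0 passed an adjusted p of 0.05 in limma, where 2 of 320 did (0.625%), and 0 passed an unadjusted p of 0.05, where 18.1% did.

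Slide row was inferred from a position number in the name of each scan, since the sample labels give none. By that reading the arrays lay in 2 rows of the slide layout, and both rows held both groups. Within the rows the log2 fold change was -0.20 (row 1) and -0.13 (row 2) for miR-15b, -0.04 and -0.05 for miR-16, -0.10 and -0.001 for miR-195, and -0.08 and 0.02 for miR-497. Row 1 held only 1 control array. With row as a block the values were -0.16, -0.05, -0.04 and -0.02, and no member passed (limma adjusted p = 0.556 to 1).

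Spread was read at the level of spots and of arrays. The median SD of log2 signal between spots of a probe was 0.12 for miR-15b, 0.07 for miR-16, 0.06 for miR-195 and 0.08 for miR-497. The highest spot SD of any probe and array was 0.18, 0.10, 0.13 and 0.16, in the same order. The SD between arrays within a group, after averaging those spots, was 0.17, 0.16, 0.12 and 0.13. With 1 array per rat, differences between rats and between labellings or hybridisations cannot be told apart.

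Transcript partners were then compared within each array, as the log2 ratio of their signals, which removes whatever raised or lowered both alike. The ratio of miR-15b to miR-16 was -2.21, -2.22, -2.01 and -2.08 on PFOS replicates 1 to 4 and -2.06, -2.04 and -1.90 on control replicates 1 to 3. PFOS replicate 3 lay inside the control range and the other 3 below it. The mean was -2.13 ± 0.10 (SD, n = 4) in PFOS and -1.997 ± 0.08 (SD, n = 3) in control livers. That is a difference of -0.13 (exact two-sided permutation p = 0.2, adjusted over 2 ratios 0.4), where the 35 divisions of 7 arrays cannot give a p below 0.0286. The ratio of miR-195 to miR-497 was 0.39, 0.31, 0.42 and 0.26 on the PFOS arrays and 0.38, 0.42 and 0.30 on the control arrays. Its difference was -0.02, smaller than its SD of 0.07 within groups (exact two-sided permutation p = 0.771, adjusted 0.771). Over all 7 arrays this ratio stayed within a range of 0.16 on the log2 scale, and that of miR-15b to miR-16 within 0.32.

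The likeness of the members' profiles over the 7 arrays is given as a description. It was measured as the root mean square difference of log2 signal after each miRNA was centred on its own mean over the 7 arrays. A small value arises where the same arrays were high and low, or where both miRNAs were nearly flat. A miRNA level over all arrays would lie at 0.17 from miR-15b, 0.13 from miR-16, 0.10 from miR-195 and 0.11 from miR-497. For miR-195, its partner miR-497 was the 2nd nearest of 174 other tested miRNAs, at 0.06, and for miR-497 the partner miR-195 was also the 2nd. For miR-15b the partner miR-16 was the 2nd nearest at 0.11 (0.105), and for miR-16 the partner miR-15b was the 4th. miRNAs from other genes were nearer to each member than its partner was, with miR-872 first for miR-15b and miR-16, miR-28 for miR-195 and miR-27a for miR-497. miR-195, which is nearly identical in sequence to miR-16, was the 31st for miR-16, at 0.16. miR-497 was the 40th for miR-15b, at 0.20. Both lay farther away than a level miRNA would, so these ranks do not show shared high and low arrays. The median over all other tested miRNAs was 0.22 to 0.26 for the 4 members. These are descriptions of 7 arrays that share their RNA and loess curves, and flat miRNAs lie near each other by this measure.

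Outside the family, the 3 nearest tested miRNAs of miR-15b were miR-872 (0.08), miR-21 (0.12) and miR-210 (0.12). Those of miR-16 were miR-872 (0.08), miR-511* (0.10) and let-7b (0.10). For miR-195 they were miR-28 (0.05), miR-214 (0.07) and miR-151 (0.07), and for miR-497 they were miR-27a (0.05), miR-151 (0.07) and miR-28 (0.07).

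The same-seed relative miR-322, from the X chromosome, had signals of 118, 190, 170 and 179 on PFOS replicates 1 to 4 and 149, 169 and 172 on control replicates 1 to 3. PFOS replicate 1 was the lowest array, as for miR-195 and miR-497. The log2 fold change was -0.01 (SE 0.18, 95% interval -0.44 to 0.41), with an adjusted p of 1 in limma. Its profile ranked 14th nearest to miR-497, 44th to miR-195, 95th to miR-15b and 111th to miR-16. PFOS replicate 1 also had the fewest detected miRNAs of the PFOS arrays, 161, while control replicates 2 and 3 had fewer still, 143 and 131. The part of that array's quality in its low values was not tested.

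**Figure D3:**
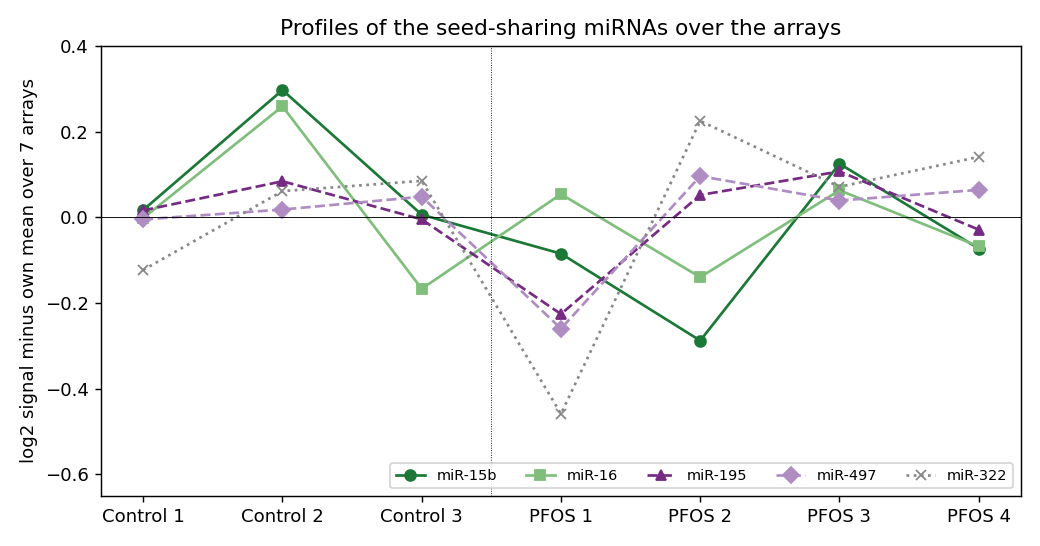
Log2 signal of the 4 members and miR-322 minus each miRNA's own mean over the 7 arrays (vertical axis), by array (horizontal axis, order arbitrary), with lines joining the values of 1 miRNA. miR-195 and miR-497 stay close to each other on every array with their low point on PFOS replicate 1, while miR-15b and miR-16 share their high point on control replicate 2.

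The deposited value table, which holds the authors' own cyclic lowess values, gave lower estimates. In it miR-15b was at 7.76, 7.52, 7.74 and 7.69 (log2) on PFOS replicates 1 to 4 and at 7.93, 8.13 and 7.91 on control replicates 1 to 3. miR-16 was at 9.65, 9.30, 9.44 and 9.30 on the PFOS arrays and 9.66, 9.99 and 9.59 on the control arrays. Every PFOS value was below every control value for miR-15b, and for miR-16 the groups overlapped by 1 array. miR-195 was at 8.11, 8.30, 8.31 and 8.27 on the PFOS arrays and 8.4, 8.56 and 8.57 on the control arrays. miR-497 was at 7.88, 8.03, 8.03 and 8.03 and at 8.12, 8.23 and 8.28. For these 2 the groups did not overlap either.

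Fitted with limma in the same way, the log2 fold changes from that table were -0.31 (SE 0.08) for miR-15b, -0.32 (SE 0.13) for miR-16, -0.26 (SE 0.07) for miR-195 and -0.22 (SE 0.06) for miR-497. None passed over all tested miRNAs (limma adjusted p = 0.0668, 0.175, 0.069 and 0.0755), where 9 of 175 did (5.14%). At an unadjusted p under 0.05 all 4 members passed, where 41 of 175 did (23.4%), 32 of them lower. The groups did not overlap for 3 members, where 43 of 175 did not (24.6%). Lower values in that table were common among bright miRNAs: of the 48 tested miRNAs at least as bright as miR-15b, the members included, 46 were below 0 with a median of -0.26, while the 127 dimmer ones had a median of 0.02. In the main processing the same 48 had a median of -0.01, but its cyclic loess evens out differences that follow brightness. That median was thus largely set by the normalization and cannot tell which values are nearer the true ones. This comparison by brightness was chosen after the values were seen. With no background subtracted, the log2 fold changes were -0.16 for miR-15b, -0.07 for miR-16, -0.02 for miR-195 and -0.02 for miR-497. The reason for the lower estimates in the deposited values was not tested.

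**Figure D4:**
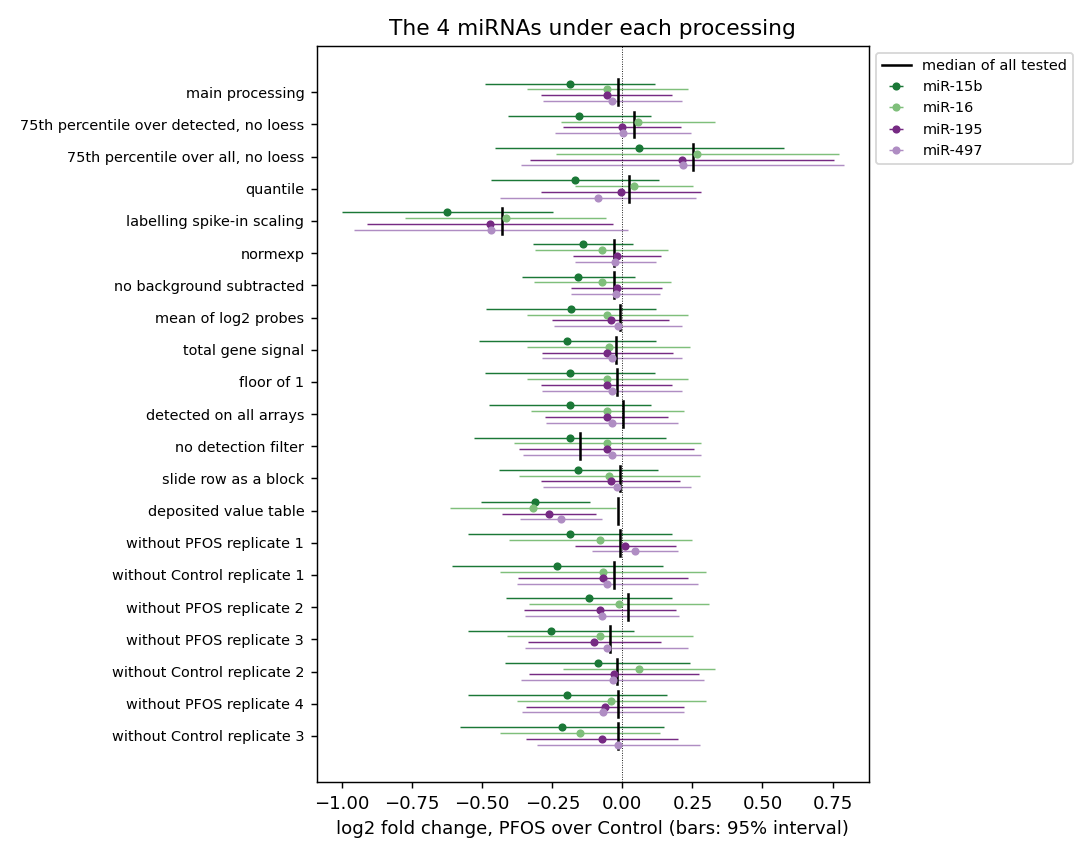
Log2 fold change of PFOS over control with its 95% interval from limma for the 4 members (colours) under the main processing and each alternative (rows), with the median of all tested miRNAs as a black bar. Under the scalings that move that median, labelling spike-in scaling and the 75th percentile over all miRNAs, miR-16, miR-195 and miR-497 lie near it. The value of miR-15b minus the median is -0.195 and -0.193 under these scalings and -0.17 in the main processing. All 4 members lie below the median in the deposited value table.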

How the data were processed

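The sample titles gave the groups. Replicate numbers are only names of arrays. Spot intensity was measured by Agilent Feature Extraction 10.7.3.1 on 1-colour arrays, per the file headers. The processed signal is background-subtracted and not normalized between arrays. Outlier, saturation and detection flags came with the deposited files. The value table deposited with the series is on a log2 scale after cyclic lowess by the authors, as the labels state. Its columns had medians of 5.48 to 5.51, no centring per miRNA, and correlated at 0.9987 to 0.9999 with the log2 median pixel signal of the same arrays (across miRNAs). No source used here gives the lowess settings.

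Kept spots were averaged per probe and probes summed per miRNA. Each array was divided by its 75th percentile, taken over miRNAs that every array detected, floored at 12.1 (the 1st percentile of detected values) and normalized by cyclic loess (limma 3.58.1, R 4.3.3, span 0.7, 3 iterations), weighted on those miRNAs. Tested were miRNAs detected on all 3 control or at least 3 PFOS arrays. Groups were compared with lmFit and eBayes (6.51 degrees of freedom), with Benjamini-Hochberg adjustment over all tested miRNAs at 0.05. The limma fit was tested on simulated normalised values with changes far larger than those of the members, and the permutation test on a made-up example. Scaling, floor, loess and the detection filter were not tested in this way. The number of arrays limits the precision. Plots were drawn with matplotlib 3.10.9.

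All members and their probes, the opposite arms, the seed relatives and the 3 nearest profiles per member were named by rule. The rule for the members uses names alone, but the members, lists and alternatives were chosen with earlier results of these data known. Alternatives changed the scaling, background, probe summary, floor, filter, slide row and values, and left out each array in turn.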

Additional observations from a re-analysis of the deposited data

Results flagged for a closer look

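The log2 signal of miR-497 on PFOS replicate 1 was 8.68, apart from the other 3 PFOS livers at 8.98 to 9.03. Its gap to the nearest of them was 0.841 of the range of the 4, above the limit used for a sample far from the others. The limit is passed by chance in about 1 of 20 groups, and 7 measures were screened.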

How the results depend on the processing

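No member passed in limma under any of the 20 alternatives, leaving out each array included, nor did a member's probe in the 17 alternatives run on single probes. Signs of values near 0 turned with the processing, and the cause was not tested. With 75th percentile scaling over all miRNAs the log2 fold changes were 0.061 for miR-15b, 0.27 for miR-16, 0.21 for miR-195 and 0.22 (0.215) for miR-497, beside a median of 0.25 over all tested miRNAs. With labelling spike-in scaling that median was -0.43 and the members gave -0.62, -0.42, -0.47 and -0.47, with adjusted p of 0.0565 to 0.132 in limma. Under 75th percentile scaling without loess miR-16 gave 0.06 (0.055) and miR-497 0.002, and miR-16 gave 0.042 under quantile normalization. Leaving out 1 array gave -0.26 (-0.255) to -0.09 for miR-15b, -0.15 to 0.059 for miR-16, -0.10 to 0.01 for miR-195 and -0.073 to 0.046 for miR-497. The positive ends came without control replicate 2 for miR-16 and without PFOS replicate 1 for miR-195 and miR-497. Without control replicate 2 miR-15b was at -0.09. The ratio of miR-15b to miR-16 differed by -0.21 with 75th percentile or spike-in scaling, both without loess (exact permutation, adjusted p = 0.114). These scalings must give the same value, since a factor per array cancels in the ratio. Under quantile normalization the ratio of miR-15b to miR-16 also differed by -0.21 (exact permutation, adjusted p = 0.229). The difference was 0.007 in the deposited value table, and -0.18 (-0.175) to -0.07 (-0.065) with 1 array left out. That of miR-195 to miR-497 differed by 0.083 under quantile normalization, 0.007 with normexp, 0.004 with no background subtracted and -0.059 to 0.01 with 1 array left out.

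The count of called miRNAs over all tested, 0 in the main processing, was 3 with 75th percentile scaling over all miRNAs, 8 with spike-in scaling, 22 with normexp, 20 with no background subtracted, 1 with the total gene signal, 1 with no detection filter, 4 with slide row as a block and 9 in the deposited value table, and 0 with each array left out. No paired analysis was possible because the labels give no replicate numbers shared between the groups.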
